A study of Homo sapiens with 16 samples.

Results

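The genes described here encode the nuclear subunits of the 5 complexes of oxidative phosphorylation. They were chosen by name: gene symbols that begin with NDUFA, NDUFB, NDUFC, NDUFS or NDUFV and a number, SDHA to SDHD, UQCR, COX4 to COX8, ATP5F1, ATP5M or ATP5P, with pseudogenes and antisense genes left out. The rule found 87 of the 60669 genes listed, the same 87 in both tables: 36 for complex I, 4 for complex II, 10 for complex III, 18 for complex IV and 19 for complex V. Names alone also brought in UQCRFS1-DT, a non-coding transcript beside UQCRFS1, ATP5MF-PTCD1, a readthrough of neighbouring genes, and the near copies UQCRHL and ATP5MGL. NDUFA4, named for complex I, was counted with complex IV, where its protein is now placed.

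RNA came from HMC3, a human microglial cell line, either wild type or labelled as a knockout of METTL3, the catalytic subunit of the enzyme that writes N6-methyladenosine on RNA. The labels name no treatment, time or culture, do not say how the knockout was made, and do not say if the knockout line is a single clone. Smart-seq2, which amplifies polyadenylated RNA, was used for 5 wild-type and 5 knockout-labelled libraries, and ribosomal RNA depletion with a directional kit for 3 and 3 more. The poly(A) libraries were available as the authors' comparison only, with no value per library, and the rRNA-depleted ones as TPM, a share of the library corrected for gene length.

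In oxidative phosphorylation, complexes I and II pass electrons from NADH and succinate to ubiquinone, complex III passes them to cytochrome c, and complex IV passes them to oxygen. Complexes I, III and IV pump protons out of the mitochondrial matrix, and complex V, the ATP synthase, makes ATP as the protons flow back. A few subunits are encoded in mitochondrial DNA, and all others, those described here, are encoded in the nucleus, so that 2 genomes must supply each of complexes I, III, IV and V.

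Depth, recovered from the TPM values as whole reads, was 266130 to 487243 reads in the wild-type and 512597 to 1267177 in the knockout-labelled rRNA-depleted libraries. Knockout-labelled libraries 1 and 2 differed by no more than sampling noise (chi-square of 1.021 per degree of freedom over 10120 genes, p = 0.065) and were averaged, so that tests compare 3 wild-type with 2 knockout-labelled samples. The labels do not say that replicates are separate cultures, so every p-value measures only the spread between these samples. METTL3, the targeted gene, was at 25.4 to 31.6 TPM in wild type and at 39.2 to 42.7 TPM under the knockout label (limma adjusted p = 0.106), and at a log2 fold change of 0.09 in the authors' deposited table (adjusted p = 0.654), so that its mRNA does not check the label. Of 12 microglia and macrophage markers, 8 were at 0 in all 6 rRNA-depleted libraries, AIF1, ITGAM, CX3CR1, P2RY12 and TMEM119 among them, and the summed level of the list was at most 6.47 TPM in wild type and 8.72 TPM under the knockout label. Of 12 stromal and fibroblast markers, only LUM was at 0, and 9 reached 1 TPM in 3 or more libraries. Their sum was 12240 to 14540 TPM in wild type and 4135 to 4308 TPM under the knockout label. Single markers went both ways. At an adjusted p under 0.05 in the authors' deposited table, TAGLN, COL1A1, FN1 and SPARC were lower (-1.18, -0.79, -0.34 and -0.33) and THY1 and COL1A2 higher (0.58 and 0.30). A further 3 had a mean normalized count under 1 there. The part of these markers in the results below was not tested. In bulk RNA, fewer cells of a type and less RNA per cell cannot be told apart.

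In the poly(A) libraries the subunit genes were lower under the knockout label, and none was higher. Of the 77 with an adjusted p in the authors' deposited table, 43 were lower and 0 were higher at an adjusted p under 0.05, where 10.3% of all 14009 genes were lower and 9.55% higher. At an unadjusted p under 0.05 in the same DESeq2-style table, 55 were lower and 0 higher. The log2 fold change was below 0 for 71 of the 77, and the middle value was -0.40, against 0.02 over all genes. The falls were small: those past the threshold lay between -0.97 and -0.22, and none reached 1 on the log2 scale. The table does not name its numerator, and a positive value is read here as higher under the knockout label. With that reading, 91.5% of the 177 genes that passed in both types of library, and by a log2 of 1 or more in each, had the same sign.

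COX6A1 (ENSG00000111775), the ubiquitous form of a small nuclear subunit of cytochrome c oxidase, had the lowest value of any subunit gene that passed, a log2 fold change of -0.97 (SE 0.19, adjusted p = 6.45e-06 in the authors' deposited table), which is 49.0% lower. NDUFA11, an accessory membrane-arm subunit of complex I, followed at -0.76 (SE 0.21) in the authors' deposited table. NDUFB10 stood at -0.71 (SE 0.14) there and NDUFA8 at -0.69 (SE 0.13), both accessory subunits that lie on the intermembrane-space side of complex I. COX8A, the ubiquitous form of the smallest nuclear subunit of complex IV, stood at -0.71 (SE 0.23, adjusted p = 0.0127) in the authors' deposited table. In the rRNA-depleted libraries, described below, NDUFA8 was higher (log2 change 1.73, limma adjusted p = 0.00651). There NDUFA11 and NDUFB10 did not pass (-0.04 and 1.28, limma adjusted p = 0.939 and 0.0785).

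Every complex had genes that were lower, though in complex II only 1, SDHC. The authors' deposited table had 21 of 35 complex I genes, 1 of 4 complex II genes, 4 of 9 complex III genes, 7 of 12 complex IV genes and 10 of 17 complex V genes lower. Of all genes, 10.3% were lower there. Within complexes the values were uneven. The authors' deposited table gave -0.02 for NDUFS1, the largest iron-sulfur subunit of complex I, and -0.09 for SDHA, the flavoprotein of succinate dehydrogenase. UQCRC2, a core protein of complex III, had -0.01 in the authors' deposited table and UQCRFS1, its Rieske iron-sulfur protein, 0.03. ATP5F1A and ATP5F1B, the alpha and beta subunits that form the catalytic head of ATP synthase, had 0.07 and -0.02 there, at mean normalized counts of 911 and 2774. None of these 6 passed the threshold, and they were picked out after their values were seen. Of the 7 nuclear core subunits of complex I, 3 (NDUFS3, NDUFS8 and NDUFV1) were lower in the authors' deposited table, against 18 of 28 accessory subunits. The difference between core and accessory subunits was not tested.

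The rRNA-depleted libraries gave another picture: here most subunit genes that passed were higher under the knockout label. Of 80 subunit genes that reached 1 TPM in 3 or more libraries, 35 were higher and 10 lower (limma, adjusted p under 0.05), where 22.9% of all 14789 genes tested were higher and 12.4% lower. Their median log2 change was 1.06, and that of all genes 0.41, a difference of 0.65. Changes below are given on the log2(TPM + 1) scale, and "relative" means less the 0.41 of all genes. With median ratio scaling, 30 subunit genes were higher and 16 lower, against 2364 higher and 2499 lower genes in all, which changes the balance over all genes from 3382 and 1838. The 3 knockout-labelled libraries were all above the 3 wild-type ones for 48 subunit genes, and all below for 15, where 38.4% and 19.9% of all genes did so. Without knockout-labelled library 3, the average of libraries 1 and 2 stands alone, so that only the wild-type samples give a spread. The median of the subunit genes then stood 0.78 above that of all genes. The cause of any change in calls was not tested. Of 27 genes called and given with values by rule, 20 then lost their call (limma adjusted p = 0.0587 to 0.27): NDUFB4, NDUFA12, NDUFC2, NDUFA8, SDHB, UQCRB, UQCRC2, UQCR10, UQCRH, UQCRHL, COX5A, COX8A, COX6A1, COX7A2, ATP5F1C, ATP5MK, ATP5PB, ATP5MC2, TFAM and NRF1.

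Summed over the 87 genes, the level in the wild-type libraries was 5876, 5794 and 5657 TPM, and in the knockout-labelled ones 9659, 9565 and 9551 TPM. By complex, the sums in wild-type libraries 1 to 3 were 3302, 3142 and 3217 TPM for complex I and 554.5, 611 and 516.8 TPM for complex IV. Under the knockout label, libraries 1 to 3 held 3775, 3476 and 3638 TPM of complex I and 1855, 1877 and 1776 TPM of complex IV. The groups did not overlap for either complex, and the gap was far wider for complex IV. Complex V stood at 1151 to 1241 TPM and at 2740 to 2865 TPM, complex III at 622.3 to 713.4 TPM and at 1080 to 1148 TPM, and complex II at 112.3 to 149.6 TPM and at 193.2 to 209.1 TPM, in wild type and under the knockout label. Nuclear protein-coding genes as a whole held 58.6 to 61.9% of TPM in wild type and 68.3 to 70.7% under the knockout label, which moved the same way, and its part in the sums was not tested. After rescaling to those genes, 32 subunit genes were higher and 14 lower, against 2716 higher and 2153 lower genes in all.

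**Figure D1:**
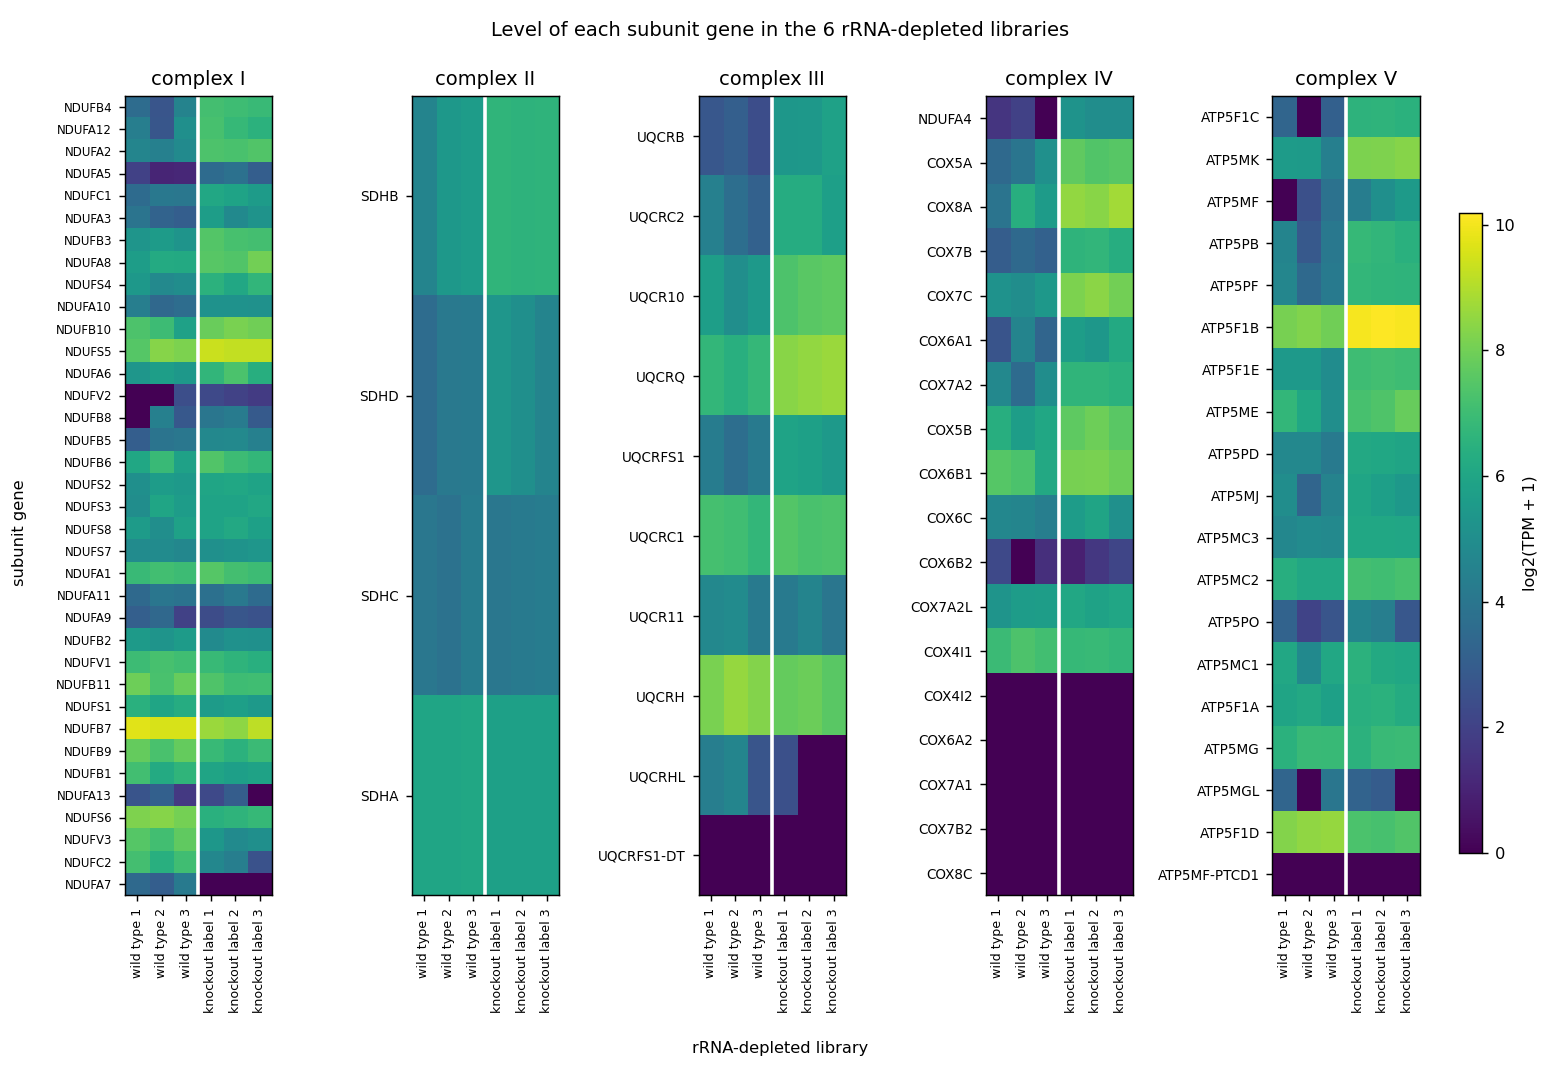
Level of each of the 87 subunit genes, as log2(TPM + 1) by color, in 3 wild-type and 3 knockout-labelled rRNA-depleted libraries, one column per library, with genes of each complex ordered from the largest relative rise to the largest fall. Most rows of complexes IV and V brighten to the right of the white line, complex I divides between rows that brighten and rows that darken, and 7 rows are at 0 in all 6 libraries.

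In complex I, 12 of 36 genes were higher and 7 lower in the rRNA-depleted libraries, where 22.9% and 12.4% of all genes were. The relative median was 0.10. Of the 7, NDUFA7 was at 0 under the knockout label and passed the filter through wild type alone. The lower genes include several of the most abundant subunit genes in wild type. NDUFB4 (ENSG00000065518, chromosome 3, 120596309 to 120602500, GRCh38), an accessory subunit of the membrane arm, was at 11.2, 5.48 and 22.2 TPM in wild type and at 140, 129 and 120 TPM under the knockout label. Every knockout-labelled library was above every wild-type one, and the change was 3.38 (SE 0.54, limma adjusted p = 0.00894). It rests on 3, 1 and 7 wild-type reads. NDUFA12, which helps hold the peripheral arm to the membrane arm, was at 19.5, 5.70 and 33.0 TPM and at 148, 113 and 92.5 TPM. Its change of 2.73 (SE 0.70, limma adjusted p = 0.0341) rests on 1 to 10 wild-type reads. The call was lost at a pseudocount of 0.1 (limma adjusted p = 0.0507). NDUFA2, an accessory subunit of the peripheral arm, was at 23.8, 20.9 and 28.2 TPM and at 160, 153 and 169 TPM. That is 6.71 times the wild-type mean, without overlap, from 5, 3 and 7 wild-type reads. NDUFA2 is one of 6 named genes called in the same direction under every alternative tried.

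The largest falls in complex I were in NDUFC2, NDUFV3 and NDUFS6. NDUFC2 (ENSG00000151366, chromosome 11, 78068304 to 78080219), an accessory membrane-arm subunit, was at 139, 85.8 and 133 TPM in wild type and at 25.3, 19.6 and 4.87 TPM under the knockout label, the last from 2 reads. Its change was -3.33 (SE 0.61, limma adjusted p = 0.0132). Without knockout-labelled library 3 it was -2.33 and no longer passed (limma adjusted p = 0.0587). NDUFV3 (ENSG00000160194, chromosome 21, 42879644 to 42913304), an accessory subunit of the NADH-binding module, fell from 180, 137 and 209 TPM to 40.7, 28.1 and 32.6 TPM, a change of -2.33 (SE 0.20, limma adjusted p = 0.00209). NDUFS6, which carries a zinc site in the peripheral arm, fell from 298, 321 and 264 TPM to 87.8, 98.2 and 111 TPM, a change of -1.52 (SE 0.14, limma adjusted p = 0.00236). All 3 genes were low in every knockout-labelled library, and NDUFV3 and NDUFS6 held their call under every alternative tried.

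NDUFB7, whose protein lies on the intermembrane-space side of complex I, was the most abundant subunit gene in wild type, at 854, 760 and 755 TPM, and stood at 404, 351 and 572 TPM under the knockout label. The change was -0.76 (SE 0.20, limma adjusted p = 0.0335), and it turned positive when the trend with GC content or with gene length was removed from each library. NDUFS1 was at 86.6, 61.6 and 77.6 TPM and at 47.5, 52.7 and 43.2 TPM (change -0.67, limma adjusted p = 0.0475). It was the only one of the 7 core subunits that passed. NDUFS7 and NDUFS8, core iron-sulfur subunits, lay at the median of all genes. NDUFS7 was at 29.1, 28.8 and 25.4 TPM and at 33.8, 36.7 and 39.4 TPM, a change of 0.41 (limma adjusted p = 0.134). NDUFS8 was at 47.0, 32.0 and 55.6 TPM and at 59.3, 69.6 and 54.3 TPM, with overlap between the groups and a change of 0.43 (limma adjusted p = 0.27). NDUFV2, another core subunit, had 3 reads or fewer in each of the 6 libraries, too few for a fold, and shares 28.4% of its exon length with AP005263.1 on the same strand.

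In complex II, which has no mitochondrially encoded subunit, 1 gene of 4 was higher, a share near the 22.9% of all genes. SDHB, the iron-sulfur subunit, was at 23.0, 42.0 and 48.6 TPM in wild type and at 99.4, 95.7 and 97.1 TPM under the knockout label, without overlap (change 1.40, SE 0.34, limma adjusted p = 0.0276). With median ratio scaling SDHB no longer passed. SDHA was at 62.5, 61.7 and 65.7 TPM and at 54.0, 53.6 and 54.7 TPM, a small separation that did not pass (change -0.22, limma adjusted p = 0.231), but SDHA was lower with median ratio scaling (limma adjusted p = 0.0244) and with voom (0.00694). SDHC, one of the membrane anchors, was at 15.5, 13.2 and 18.6 TPM and at 15.6, 16.8 and 18.2 TPM, with full overlap. SDHC was the complex II gene that was lower in the authors' deposited table, at -0.49 (SE 0.09, adjusted p = 1.23e-06). By limma 0 complex II genes were lower, also 0 at an unadjusted p under 0.05, and 1 with voom on the recovered reads.

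In complex III, 5 of 9 genes tested were higher and 2 lower, where 22.9% and 12.4% of all genes were. Of the 2, UQCRHL was at 4.61, 0 and 0 TPM under the knockout label and passed the filter through wild type. UQCRB (ENSG00000156467), a small ubiquinone-binding subunit, was at 5.83, 7.46 and 4.31 TPM in wild type and at 41.4, 42.3 and 56.5 TPM under the knockout label, a change of 2.88 (SE 0.34, limma adjusted p = 0.0041). UQCRC2 was at 20.4, 11.9 and 8.03 TPM and at 77.7, 78.2 and 53.2 TPM (change 2.27, SE 0.43, limma adjusted p = 0.0136). UQCR10, a small subunit next to cytochrome c1, was at 50.9, 31.8 and 43.0 TPM and at 162, 188 and 199 TPM (change 2.15, SE 0.22, limma adjusted p = 0.00302). The groups were apart for all 3. In wild type they rest on 8, 7 and 7 reads for UQCRB, 15, 6 and 7 for UQCRC2, and 7, 3 and 7 for UQCR10. UQCRC1, the partner core protein of UQCRC2, was at 142, 131 and 107 TPM and at 173, 152 and 160 TPM, a change of 0.35 (limma adjusted p = 0.128) that lay near the median of all genes. With the GC trend removed UQCRC1 was higher (change 0.92, limma adjusted p = 0.0157).

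UQCRH, the hinge protein of complex III, fell from 277, 382 and 310 TPM to 217, 239 and 188 TPM (change -0.63, limma adjusted p = 0.0432). UQCRH did not pass at a pseudocount of 0.1 or with no filter on low values (limma adjusted p = 0.0532 and 0.0647). Nor did it pass once the trend with GC content or with gene length was removed. The call was also lost without wild-type library 2 or 3 or knockout-labelled library 1 (limma adjusted p = 0.063, 0.0841 and 0.0568), and without knockout-labelled library 3. Its copy UQCRHL, whose coding sequence is identical to that of UQCRH at 98.5% of aligned bases, was at 19.5, 23.7 and 5.49 TPM and at 4.61, 0 and 0 TPM, from 6 reads or fewer per library, at least 2.48-fold lower against a floor of 3 reads per library. How the authors' counting divides reads between UQCRH and UQCRHL is not stated, so both values are uncertain.

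In complex IV, 8 of 13 genes tested were higher and 0 lower, where 22.9% and 12.4% of all genes were. The relative median was 1.74. At an unadjusted p under 0.05 limma gave 10 higher and 0 lower, for which no share of all genes was computed. Voom on recovered reads gave 10 higher and 1 lower, against 3864 higher and 3509 lower genes in all. COX5A (ENSG00000178741, chromosome 15, 74919791 to 74938168), a matrix-side subunit, was at 10.04, 14.7 and 33.9 TPM in wild type and at 204, 169 and 183 TPM under the knockout label. That is a change of 3.35 (SE 0.50, limma adjusted p = 0.00714) from 2 to 8 wild-type reads per library. COX7B (ENSG00000131174, chromosome X, 77899438 to 77907373), a small membrane subunit, was at 7.03, 10.3 and 7.92 TPM and at 97.5, 102 and 81.2 TPM, 10.8 times the wild-type mean (change 3.29, SE 0.26, limma adjusted p = 0.00174). The fold of COX7B rests on 3, 3 and 4 wild-type reads and is imprecise. COX8A was at 14.0, 81.6 and 47.2 TPM and at 370, 335 and 433 TPM (change 3.33, SE 0.72, limma adjusted p = 0.0207), though 34.5% of its exon length is shared with AP000721.1 on the same strand. The change of COX8A rests on 1, 4 and 4 wild-type reads. COX7C, another small membrane subunit, was at 35.5, 31.2 and 42.1 TPM and at 289, 339 and 256 TPM, without overlap (change 2.94, SE 0.18, limma adjusted p = 0.00117). NDUFA4, at 0 to 1 reads in wild type and 17 to 40 under the knockout label, was at least 4.91-fold higher against 3 reads per library.

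Among complex IV genes averaging 20 reads or more, COX7A2L and COX6C were nearest to the median of all genes. COX7A2L, which joins complexes III and IV into supercomplexes, was at 37.9, 48.0 and 50.2 TPM and at 67.6, 56.7 and 64.5 TPM (change 0.48, limma adjusted p = 0.0901). COX6C was at 25.4, 23.6 and 19.5 TPM and at 48.1, 59.9 and 33.7 TPM (change 0.88, limma adjusted p = 0.0577). COX4I1, the ubiquitous form of the largest nuclear subunit, stood against the other members of its complex at 123, 160 and 137 TPM and 113, 115 and 105 TPM, a change of -0.34 that did not pass (limma adjusted p = 0.128) but did with median ratio scaling.

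Several subunits of complex IV have a ubiquitous and a tissue-restricted form. The restricted forms COX4I2, COX6A2, COX7A1, COX7B2 and COX8C were listed at 0 in all 6 rRNA-depleted libraries, and COX6B2 had 3 reads or fewer in each. Of the ubiquitous partners, COX6A1, COX7A2, COX7B and COX8A were higher under the knockout label in those libraries, and COX4I1 and COX6B1 did not pass. COX4I1 changed by -0.34 and was lower with median ratio scaling (limma adjusted p = 0.0255). COX6A1 was at 5.27, 23.1 and 8.91 TPM in wild type, 3 reads or fewer in each library, and at 49.9, 40.8 and 72.1 TPM, at least 3.37-fold higher against 3 reads per library. Its call (limma adjusted p = 0.0364) was lost with median ratio scaling, after rescaling to nuclear protein-coding genes, and with the GC trend removed. The call was also lost at a pseudocount of 0.1 and with no filter on low values (limma adjusted p = 0.0511 and 0.0518). It was lost without wild-type library 1 or 3 (limma adjusted p = 0.062 and 0.0867), and without knockout-labelled library 3. COX7A2 was at 25.8, 10.8 and 31.1 TPM and at 99.4, 101 and 90.7 TPM (change 2.15, limma adjusted p = 0.0199), from 7, 2 and 10 wild-type reads. COX6B1 was at 182, 155 and 70.4 TPM and at 276, 284 and 235 TPM, apart but not past the threshold (change 1.022, limma adjusted p = 0.118).

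In complex V, 9 of 18 genes tested were higher and 1 lower, where 22.9% and 12.4% of all genes were. The relative median was 0.99. ATP5F1B (ENSG00000110955, chromosome 12, 56638175 to 56646068) had the most reads of any subunit gene, 68 to 985 per library. It was at 275, 303 and 248 TPM in wild type and at 1041, 1162 and 1074 TPM under the knockout label, 3.95 times the mean of 275 ± 27.8 TPM (SD, n = 3; change 1.98, SE 0.12, limma adjusted p = 0.00112). Its partner ATP5F1A stayed at the median of all genes, at 60.4, 69.3 and 53.8 TPM and at 85.4, 89.6 and 75.8 TPM (change 0.42, limma adjusted p = 0.108). ATP5F1C (ENSG00000165629, chromosome 10, 7788129 to 7807815), the central stalk subunit gamma, had 3, 0 and 3 reads in wild type and 65, 83 and 32 under the knockout label. That is 9.14, 0 and 7.72 TPM against 93.7, 97.7 and 88.8 TPM, at least 9.16-fold higher against 3 reads per library. The call of ATP5F1C (limma adjusted p = 0.0299) was lost at a pseudocount of 0.1 and after rescaling to nuclear protein-coding genes.

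ATP5MK, a small subunit associated with the membrane part, was at 47.3, 46.1 and 20 TPM and at 291, 299 and 324 TPM (change 3.09, SE 0.40, limma adjusted p = 0.00499). ATP5PB, subunit b of the outer stalk, was at 23.0, 6.12 and 15.9 TPM and at 113, 102 and 87.8 TPM (change 2.78, SE 0.54, limma adjusted p = 0.0151). In wild type these rest on 6, 4 and 3 reads for ATP5MK and 11, 2 and 9 for ATP5PB. The one complex V gene that fell was ATP5F1D, subunit delta of the central stalk, from 315, 363 and 375 TPM to 155, 149 and 169 TPM (change -1.12, SE 0.12, limma adjusted p = 0.00336). All 3 had separate groups. ATP5F1D did not pass once the GC trend was removed, and in the authors' deposited table it had the highest value of any subunit gene, 0.45 (SE 0.42, adjusted p = 0.505).

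**Figure D2:**
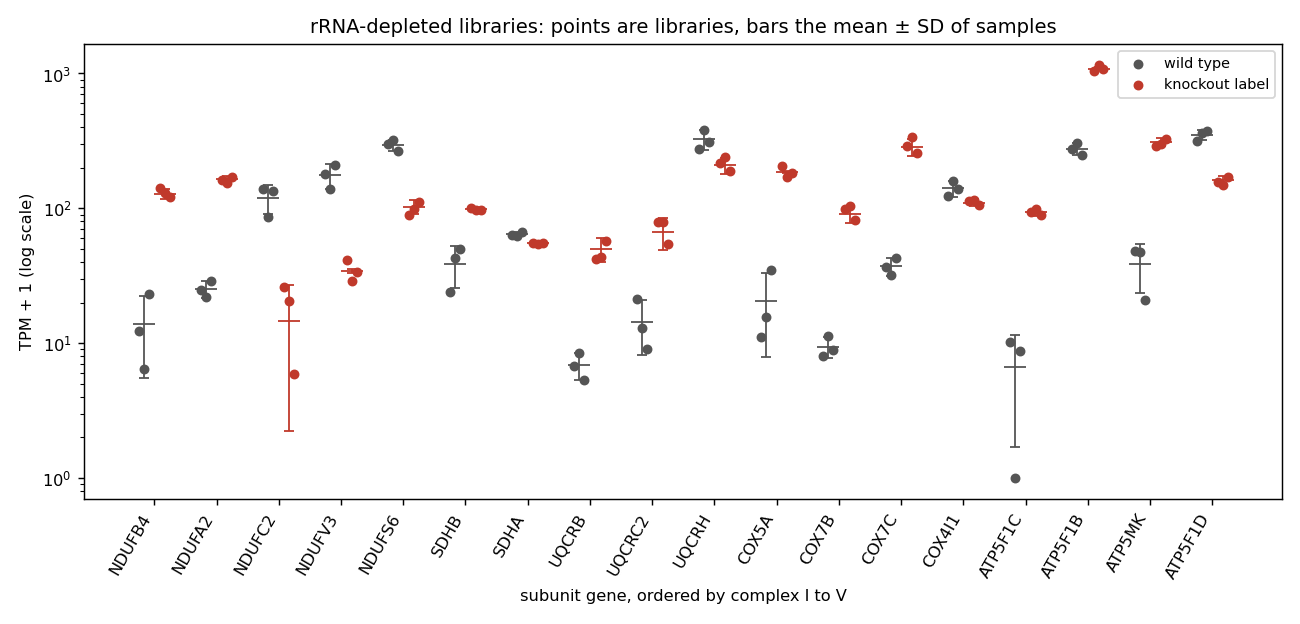
TPM + 1 (log scale) of 18 subunit genes in the rRNA-depleted libraries, with 1 point per library and bars for the mean ± SD of 3 wild-type samples and 2 knockout-labelled samples, the second taken after averaging libraries 1 and 2. ATP5F1B stands near 275 TPM in wild type and near 1087 TPM under the knockout label, and NDUFC2, NDUFV3, NDUFS6, UQCRH and ATP5F1D are lower under the knockout label.

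ATP5MC1, ATP5MC2 and ATP5MC3 encode the same mature c subunit, the membrane ring that turns as protons pass, behind different targeting peptides. Their 3 coding sequences are shown over the last 30 codons, because reads from them must be told apart by bases that differ although the protein does not. All 30 codons encode the same amino acids in the 3 genes, and the 25 positions of 90 at which the genes differ are in capitals. The stretches lie at chr17:48895677-48895766 (plus strand), chr12:53665317-53665406 (minus strand) and chr2:175178291-175178380 (minus strand) of GRCh38, from GENCODE 29 transcripts.
ATP5MC1: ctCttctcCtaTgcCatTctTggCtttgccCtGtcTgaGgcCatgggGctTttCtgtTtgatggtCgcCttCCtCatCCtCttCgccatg
ATP5MC2: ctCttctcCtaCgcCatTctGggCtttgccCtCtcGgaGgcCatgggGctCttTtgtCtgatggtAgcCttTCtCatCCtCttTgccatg
ATP5MC3: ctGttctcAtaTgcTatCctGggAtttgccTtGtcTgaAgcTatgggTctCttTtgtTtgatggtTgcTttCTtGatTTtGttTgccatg

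In the rRNA-depleted libraries ATP5MC2 and ATP5MC3 passed and ATP5MC1 did not. ATP5MC1 was at 67.7, 27.7 and 68.7 TPM in wild type and at 93.6, 71.2 and 66.7 TPM under the knockout label, with overlap (change 0.54, limma adjusted p = 0.379). ATP5MC2 was at 81.6, 67.4 and 67.5 TPM and at 142, 131 and 149 TPM (change 0.98, SE 0.14, limma adjusted p = 0.00667). ATP5MC3 was at 25.1, 29 and 26.5 TPM and at 66.2, 66.7 and 64.8 TPM (change 1.26, SE 0.16, limma adjusted p = 0.00473), and kept its call under every alternative tried. In the authors' deposited table ATP5MC1 and ATP5MC2 were lower, at -0.54 (SE 0.13) and -0.56 (SE 0.11), and ATP5MC3 was at -0.03 (SE 0.11, adjusted p = 0.889). Differences among the 3 genes were not tested.

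The 2 library types thus gave opposite calls for many of the same genes. Of the 77 subunit genes with a test in both, 20 were higher in the rRNA-depleted and lower in the poly(A) libraries, a combination found in 3.03% of the 12498 genes with a test in both. A further 3 (NDUFC2, NDUFS6 and UQCRH) were lower in both, where 1.96% of all genes were. Another 15 were higher in the rRNA-depleted libraries and did not pass in poly(A), and 20 were lower in poly(A) and did not pass in the rRNA-depleted libraries. For these last 2 combinations no share of all genes was computed, so the counts cannot be set against it. The 20 opposite genes comprise 9 of complex I, 1 of complex III, 5 of complex IV and 5 of complex V. COX6A1, COX8A, NDUFA4, COX7A2 and COX7C of complex IV are all among them. Across the 77 genes, the 2 sets of changes had a Spearman's rho of -0.000526, and across the 12498 genes of 0.19, given as a description of genes that are not independent.

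**Figure D3:**
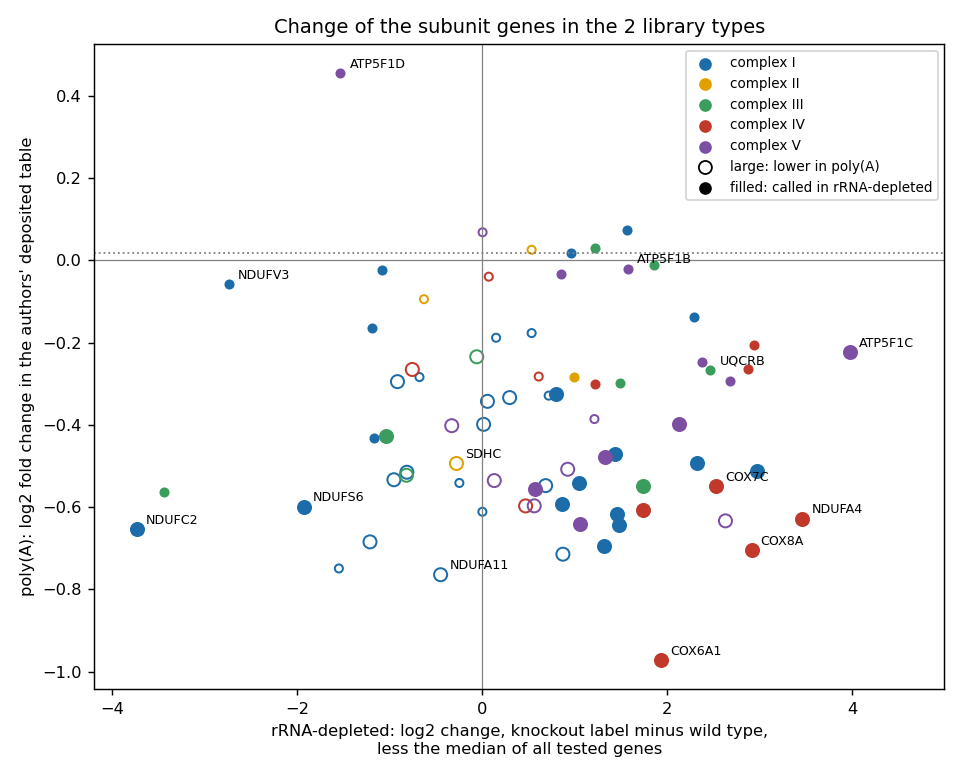
Each point is 1 of 77 subunit genes, with the rRNA-depleted log2 change less the median of all tested genes on the horizontal axis and the log2 fold change of the authors' deposited poly(A) comparison on the vertical axis. Filled points passed in the rRNA-depleted libraries and large points were lower in poly(A), and the dotted line is the poly(A) median of all genes, 0.02. Of the 77 points, 71 lie below 0 on the vertical axis, and the large filled points at the lower right are the genes with opposite calls.

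The levels themselves, apart from any change, also differed between the library types. Levels per length were compared through the authors' deposited mean normalized count over all poly(A) libraries, divided by exon length. Across the 80 subunit genes tested, its Spearman's rho with TPM was 0.459, 0.435 and 0.494 in wild-type libraries 1 to 3 and 0.861, 0.87 and 0.848 in knockout-labelled libraries 1 to 3. Over 12452 genes the values were 0.476 to 0.498 and 0.71 to 0.742. For the 61 subunit genes that averaged 20 reads or more, rho was 0.206 to 0.222 in wild type and 0.784 to 0.83 under the knockout label. Knockout-labelled library 3, at 512597 reads, and wild-type library 3, at 487243, stood at 0.848 and 0.494, but the median subunit gene had 32.5 reads in the former and 7 to 11.5 in the wild-type libraries. The part of read number in this gap was not tested. These are descriptions across genes that share a library, with no test.

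The order of the genes shows the same. In wild type the 5 highest subunit genes by mean TPM were NDUFB7, ATP5F1D, UQCRH, NDUFS6 and ATP5F1B, at 790, 351, 323, 294 and 275 TPM. Under the knockout label the first 5 were ATP5F1B, NDUFS5, NDUFB7, COX8A and UQCRQ, at 1087, 616, 474, 393 and 374 TPM. ATP5F1D was at rank 2 in wild type and 18 under the knockout label, NDUFS6 at 4 and 31, and COX8A at 29 and 4. ATP5F1B had the highest mean normalized count of all subunit genes in the authors' deposited table, 2774, and ATP5F1D had 50.1.

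**Figure D4:**
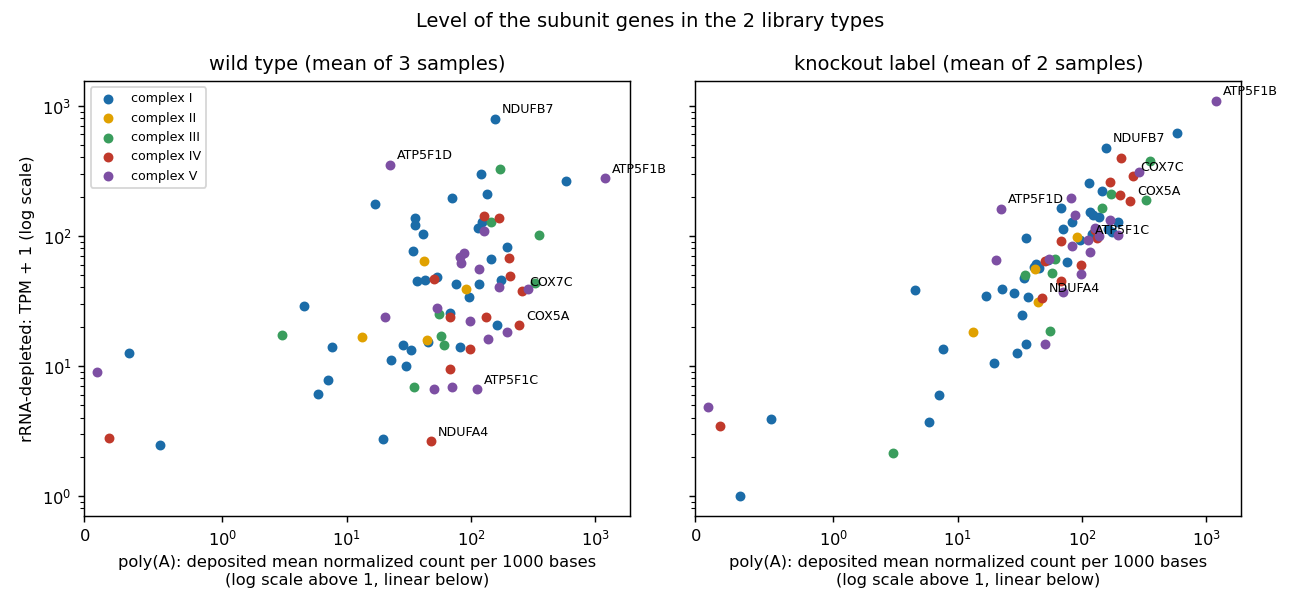
TPM + 1 in the rRNA-depleted libraries (log scale) against the deposited poly(A) mean normalized count per exon length, for 80 subunit genes, in wild type on the left and under the knockout label on the right. The points spread widely in wild type and lie close to a rising band under the knockout label, with Spearman's rho of 0.481 and 0.861 for the group means.

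Gene length and base composition moved with the changes. Subunit genes and all genes shared the direction, except for length in the rRNA-depleted libraries. In poly(A), the median log2 fold change of all genes rose from -0.20 in the bin of shortest exon length to 0.18 in the longest, over 10 bins of equal gene number. The subunit genes are short: those lower in poly(A) had a median exon length of 2263 bases and those that did not pass 3204 bases, against 4783 bases for all genes. In the shortest of 10 length bins, the authors' deposited table put the median of 22 subunit genes at -0.45, in the next bin that of 16 at -0.54, and in the third bin that of 9 at -0.54, each below the median of all genes of that length. With the trend with length removed, a step added after seeing the data, the median of the 77 subunit genes stood at -0.32 relative to that of all genes, where it had been -0.42.

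With GC content, the poly(A) median of all genes went from 0.15 in the lowest of 10 bins to -0.15 in the highest. In the rRNA-depleted libraries the relative change of all genes fell from 0.83, where GC was lowest, to -0.82, where it was highest, and with exon length it went from -0.59 in the shortest bin to 0.24 in the longest. After removal of each library's GC trend, 40 subunit genes were higher and 10 lower, against 3089 higher and 1382 lower genes in all. The subunit median then stood 0.525 above that of all genes. Spearman's rho of change with GC content was -0.277 across the 80 subunit genes and -0.367 across all genes, as descriptions. With exon length, rho was -0.201 across the subunit genes and 0.0865 across all genes. In the shortest and the next length bin, the subunit medians were 1.036 and 1.435, against -0.59 and -0.04 for all genes. Whether length or GC content accounts for the changes of single genes was not tested.

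**Figure D5:**
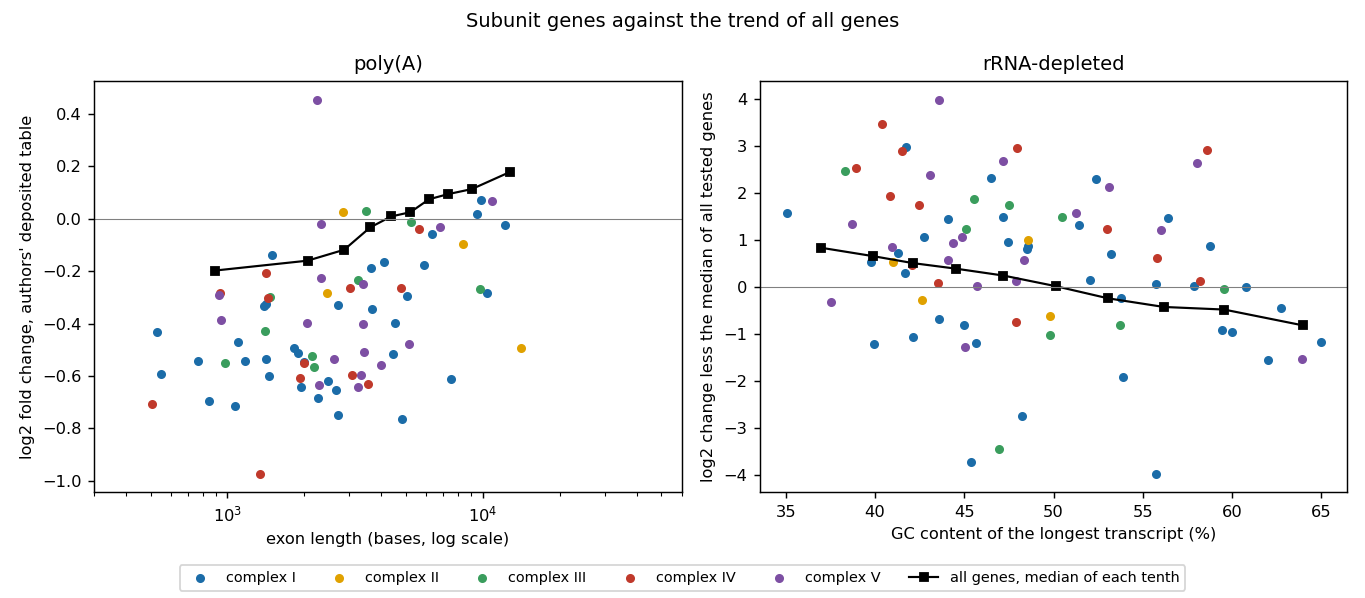
Left, the deposited poly(A) log2 fold change of 77 subunit genes against exon length (log scale); right, the rRNA-depleted change less the median of all tested genes, for 80 subunit genes, against the GC content of the longest transcript. Black squares are medians of all genes in 10 bins of each property. The subunit genes lie mostly below the squares on the left, and on the right they scatter on both sides of a line that falls from 0.83 to -0.82.

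Genes of the respiratory chain are known for promoters that hold sites for NRF1, for ETS-family factors such as GABPA, and for YY1. RefSeq start-site windows (GRCh38.p14), 250 bases before to 50 after each start, were found for 69 of the 87 genes and searched on both strands. The NRF1 core CGCATGCG was in 14.5% of them and in 2.2% of 27305 windows in all. The ETS word CCGGAAG was in 29% and 10.7%, the YY1 word ATGGCGGC in 17.4% and 3.2%, and the TATA word TATAAA in 10.1% and 12%. One or more of the first 3 was in 47.8% of the subunit windows and in 14.6% of all windows. The words differ in their letters and were counted where they occurred, overlaps included. Median GC content was 61.3% in subunit windows and 58.3% in all.

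Windows of 120 bases before the start are shown for COX6A1 and COX8A, the complex IV genes with the lowest poly(A) values, and for NDUFB7, the most abundant subunit gene in wild type, with the ETS word in capitals. They lie at chr12:120437993-120438112 (plus strand), chr11:63974500-63974619 (plus strand) and chr19:14572067-14572186 (minus strand).
COX6A1: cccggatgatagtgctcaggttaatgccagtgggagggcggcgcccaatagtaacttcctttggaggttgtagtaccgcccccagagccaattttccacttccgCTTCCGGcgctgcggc
COX8A: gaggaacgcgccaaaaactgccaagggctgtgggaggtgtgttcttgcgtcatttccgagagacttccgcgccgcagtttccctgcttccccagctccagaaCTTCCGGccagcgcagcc
NDUFB7: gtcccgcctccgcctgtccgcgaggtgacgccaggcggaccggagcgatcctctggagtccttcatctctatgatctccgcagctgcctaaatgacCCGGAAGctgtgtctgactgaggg
The word begins 16 and 18 bases before the start of COX6A1 and COX8A, on the opposite strand, and 24 bases before that of NDUFB7, on the gene's own strand. COX6A1 and COX8A were higher and NDUFB7 lower in the rRNA-depleted libraries. The RefSeq starts of COX6A1 and COX8A lie inside the genes as GENCODE 29 places them: 23 and 13 of the 120 bases shown are in GENCODE exons, and the word lies within the exon for COX6A1 and across its edge for COX8A. A match is a description of letters and shows no binding.

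Of the factors named for these promoters, NRF1 was at 8.59, 2.51 and 7.26 TPM in wild type and at 26.8, 23.9 and 21.9 TPM under the knockout label (change 1.91, limma adjusted p = 0.044). TFAM, which drives transcription of mitochondrial DNA, was at 15.2, 31.4 and 23.5 TPM and at 56.2, 59.1 and 46.1 TPM (change 1.17, limma adjusted p = 0.0478). PPARGC1A, a coactivator of respiratory genes, was under 1 TPM in all 6 libraries and was not tested. Both calls were lost at a pseudocount of 0.1, with no filter on low values, with median ratio or quantile scaling, and with the GC or length trend removed (limma adjusted p of NRF1 = 0.0501 to 0.0728, of TFAM = 0.0583 to 0.295). Of 10 such regulators tested, NRF1 and TFAM were higher, and GABPB1 and ESRRA lower (limma), where 22.9% of all genes were higher and 12.4% lower. GABPB1 changed by -1.34 and ESRRA by -0.80 (limma adjusted p = 0.0242 and 0.0186). GABPA and YY1, also named above, did not pass (changes 0.86 and -0.22, limma adjusted p = 0.137 and 0.665). Of 10 in the authors' deposited table, 1 was higher, PPRC1 at 0.52, where 9.55% of all genes were, and 0 were lower, also 0 at an unadjusted p under 0.05. NRF1 and TFAM were at -0.08 and 0.09 there, and neither passed.

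The mitochondrially encoded subunits, which assemble with the nuclear ones, were higher in the rRNA-depleted libraries in 11 of 13 genes, with a relative median of 2.29. Of all genes tested, 22.9% were higher and 12.4% lower. MT-CO1, the catalytic subunit of complex IV, was at 712, 597 and 578 TPM in wild type and at 6471, 6837 and 6822 TPM under the knockout label (change 3.42, limma adjusted p = 0.000689). MT-ND6, the one protein-coding gene on the light strand of mitochondrial DNA, was the only one lower, from 7663, 8535 and 5759 TPM to 2024, 2019 and 2743 TPM (change -1.62, limma adjusted p = 0.00674). In wild type MT-ND6 was the highest of the 13, at a mean of 7319 TPM, with MT-ND5 next at 2689 TPM. Under the knockout label their means were 2382 and 9637 TPM. What underlies the order in wild type was not tested. Since no source used here says that counting used strand, reads of MT-ND6 cannot be told apart from those of the other strand. Of these 13, the authors' deposited table had 6 higher and 3 lower (MT-ND3, MT-CO3 and MT-ATP8), where 9.55% and 10.3% of all genes were. Their median was 0.38, and that of the nuclear subunit genes was -0.40.

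A few genes that work with the complexes lie outside the name rule. NDUFAB1, an acyl carrier protein that is also a complex I subunit, did not pass in the rRNA-depleted libraries (change 0.70, limma adjusted p = 0.112) and was lower in the authors' deposited table at -0.60 (adjusted p = 0.000513). CYC1, cytochrome c1 of complex III, had a change of 0.59 (limma adjusted p = 0.0634) and CYCS, cytochrome c, of -0.72 (limma adjusted p = 0.121). ATP5IF1, an inhibitor of ATP synthase, was at 41.4, 37.2 and 32.3 TPM and at 143, 117 and 139 TPM (change 1.84, limma adjusted p = 0.0021). Of 52 assembly factors tested, 4 were higher (7.69%) and 10 lower (19.2%) by limma, where 22.9% and 12.4% of all genes were, with a relative median of -0.27. The 4 higher include NDUFAF4, which had 0 reads in wild type and passed the filter through the knockout label alone. The authors' deposited table had 3 of 53 higher and 11 lower, where 9.55% and 10.3% of all genes were, with a median of -0.25. Among them UQCC3, an assembly factor of complex III, fell from 210, 186 and 230 TPM to 32.1, 28.6 and 32.3 TPM (change -2.69, limma adjusted p = 0.000891), and LRPPRC, which stabilises mitochondrial mRNA, rose from 32.7, 35.0 and 30.7 TPM to 89.3, 86.7 and 76.8 TPM (change 1.30, limma adjusted p = 0.00408). UQCC3 and LRPPRC were chosen after their values were seen.

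For 9 of the 80 subunit genes tested, at least 1 group had 3 reads or fewer in every library. NDUFV2, COX6B2 and ATP5MGL were at this floor in both groups. NDUFA13 was at it in wild type and had at most 7 reads elsewhere. NDUFA7, called lower, had 2, 1 and 4 reads in wild type and 0 under the knockout label, at least 1.13-fold lower. It passed the filter through wild type alone and shares 32.3% of its exon length with AC010323.1 on the same strand. With these genes at their bounds, or left out where both groups were at the floor, the median stood 0.69 above that of all genes. Other members overlap genes on the opposite strand: ATP5ME shares 61.6% of its exon length with MYL5, NDUFB11 44.9% with RBM10, and NDUFA1 44.5% with RNF113A. Their values depend on whether counting used strand. Listed pseudogenes number 17 for COX6C and 12 each for NDUFB4 and NDUFA5. How counting divides reads among such copies is not stated.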

How the data were processed

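HMC3 libraries, 16 in all, were grouped by their labels. Trimmomatic, STAR, DESeq2 and the hg38 build are named in the submitters' processing notes, with no versions; how TPM was computed and whether counting used strand is not given in the sources used here. TPM, a length-corrected share of the library, of the rRNA-depleted libraries was deposited by the authors. For the poly(A) libraries, per the file headers, the deposited comparison gives a mean normalized count over all libraries (a signal), log2 fold changes with standard errors, a test score, and p-values and adjusted p-values; the design had foreseen counts per library, so no test of these libraries was run here.

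Reads were recovered from TPM and GENCODE 29 exon lengths (93.8% of 60669 IDs matched), and 90.9% of values came out whole within 0.02 reads. Depth was 266130 to 1267177 reads, so that genes near 3 reads per library, the floor used for bounds, are imprecise; floors cover counting error only. Knockout-labelled libraries 1 and 2 were averaged. Genes that reached 1 TPM in 3 or more libraries were tested as log2(TPM + 1) with limma 3.58.1 (R 4.3.3) and Benjamini-Hochberg adjustment over all 14789, at an adjusted p under 0.05. On simulated data of 14087 genes with 200 changed by a log2 of 2, 52 were recovered (26%), all in the right direction, and 51.1% of those with at least 20 mean reads; 13 unchanged genes were called.

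Values are given for the 3 largest called rises and falls of each complex among genes averaging 20 reads or more, the 2 genes of each complex nearest to the median of all genes, the 5 largest poly(A) falls, isoform pairs, and a few partner genes. NDUFA11, NDUFB10, NDUFA8, NDUFAB1, CYC1 and CYCS have changes only, COX6B2 and PPARGC1A an upper limit, and the rest a value in every library. Other genes were named after their values were seen. The subunit genes, lists and tests were chosen with earlier results of these data known. Alternatives were other pseudocounts, filters, scalings and thresholds, trends removed, voom on recovered reads, a replicate block, and each library left out.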

Additional observations from a re-analysis of the deposited data

How the results depend on the processing

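Of the 45 subunit genes called in the rRNA-depleted libraries, NDUFB7 alone changed direction under the scalings, voom and trend removals tried, with the GC or the length trend removed. The number of subunit genes lower in the rRNA-depleted libraries was 10, and became 6 with no filter on low values, 16 with median ratio scaling, 16 with voom on recovered reads and 4 at an adjusted p under 0.01; it ranged from 4 to 9 with each library left out. The number higher was 35, became 18 at an adjusted p under 0.01, and ranged from 8 to 35 with each library left out, 8 being the value without knockout-labelled library 3. The relative median of 0.65 became 0.72 at a pseudocount of 0.1, 0.61 at 5, 0.75 with quantile normalization, 0.525 with the GC trend removed, 0.80 with the length trend removed, 0.80 with 6 libraries as 6 samples and 0.86 with voom, and ranged from 0.63 to 0.78 with each library left out. Over all genes, voom called 3509 lower, an adjusted p under 0.01 left 1401 higher and 841 lower, and leaving out each library gave 1004 to 3356 higher and 659 to 1829 lower. METTL3 passed with 6 libraries as 6 samples and no replicate block (0.46, limma adjusted p = 0.0486), and did not with the block (limma adjusted p = 0.113). Poly(A) falls numbered 27 at an adjusted p under 0.01 and 0 at an absolute log2 change of at least 1. The cause of these shifts was not tested. Leaving out poly(A) libraries was not run, since no value per library was used.

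Same-numbered libraries did not deviate together (r of 0.02, -0.02 and 0.008), so the replicate numbers were not read as pairs. With the replicate block and 6 libraries, 43 subunit genes were higher and 12 lower with a relative median of 0.80, against 46 and 12 without it. Over all genes the block gave 4037 higher and 2000 lower, against 4633 and 2247 without it.

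Of 835 values of 44 named genes under the alternatives, 730 kept their side of the threshold, 76 in 21 genes lost a call and 29 in 11 genes gained one. Without knockout-labelled library 3, 20 named genes lost their call. Depth limits the genes with few wild-type reads most: the median subunit gene had 7 to 11.5 reads in wild-type and 32.5 to 74.5 in knockout-labelled libraries.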
